A study of Mus musculus with 52 samples.

Results

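The 5 genes described here encode enzymes and a cofactor that write or remove DNA methylation: Tet1, Tet2, Dnmt3a, Dnmt3b and Dnmt3l. Their members are ChIP-seq peaks, the stretches of the genome at which an antibody enriched chromatin. All peaks of the 43 deposited peak lists that overlapped 1 of 5 fixed windows by at least 1 bp were taken. That gave 573 of 928298 peaks, of which 154 lay in the Tet1 window, 149 in the Tet2 window, 150 in the Dnmt3a window, 59 in the Dnmt3b window and 61 in the Dnmt3l window. In the mm9 mouse genome build the windows are chr10:62250000-62360000 for Tet1, chr3:133110000-133225000 for Tet2, chr12:3790000-3925000 for Dnmt3a, chr2:153455000-153525000 for Dnmt3b and chr10:77490000-77535000 for Dnmt3l. Their lengths differ, so covered lengths are compared within a gene only.

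The study followed mouse embryonic fibroblasts (MEF) that carry doxycycline (DOX)-inducible Oct4, Sox2, Klf4 and c-Myc (OSKM) through reprogramming to induced pluripotent stem (iPS) cells, with DOX at 2 µg/ml. Mbd3+/+ cells were set against Mbd3flox/- cells, which have 1 floxed and 1 deleted Mbd3 allele, at 4 stages: before DOX, on day 4, on day 8 and as iPS cells. Mbd3-/- embryonic stem (ES) cells were profiled as well. MEF were grown in serum medium, all other cells in pluripotent stem cell medium with LIF. The cells belong to clonal series: the Mbd3+/+ clone carries a GOF18 deltaPE-Oct4-GFP reporter, and the Mbd3flox/- and Mbd3-/- cells carry the complete GOF18 Oct4-GFP reporter. Genotype, clone and reporter therefore cannot be told apart. The 3 histone marks H3K4me3, H3K27ac and H3K27me3 and the proteins Oct4, Mi2B and Mbd3 were profiled with 1 library per group, so no difference has a replicate check and no p-value is given.

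DNA methylation at cytosines followed by guanine (CpG) is placed anew by the methyltransferases Dnmt3a and Dnmt3b. Dnmt3l has no catalytic activity of its own and stimulates both of them, and it is known as a gene of germ cells and pluripotent cells. Tet1 and Tet2 are dioxygenases that oxidise methylcytosine, a step towards its removal, and both are expressed in mouse ES cells. H3K4me3 marks active or poised gene starts, H3K27ac marks active starts and enhancers, and H3K27me3 is the mark of Polycomb repression. Oct4 is a pluripotency transcription factor and 1 of the 4 transgenes. Mbd3 and Mi2B (Chd4), a chromatin remodelling ATPase, are subunits of the NuRD complex.

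The starts of these genes differ in CpG content, which is shown because CpG-rich starts commonly carry H3K4me3 whether or not the gene is active. RefSeq promoters of the GRCm38.p6 build, 250 bases before to 50 bases after the annotated start, were matched by symbol for all 5 genes (9 promoters). Tet1 has a start with 17 CpGs at chr10:62887275-62887574 (minus strand), Tet2 a start with 57 at chr3:133544341-133544640 (minus strand) and Dnmt3b a start with 30 at chr2:153649199-153649498 (plus strand). The first of 3 Dnmt3l starts, at chr10:78042037-78042336 (plus strand), has 6. The median over 32851 mouse promoters was 7 CpGs, and 99.85% of them had fewer than Tet2 and 43.56% fewer than this Dnmt3l start. The 4 sequences are printed 5′ to 3′ on the gene's strand with each CpG in capitals.
Tet1: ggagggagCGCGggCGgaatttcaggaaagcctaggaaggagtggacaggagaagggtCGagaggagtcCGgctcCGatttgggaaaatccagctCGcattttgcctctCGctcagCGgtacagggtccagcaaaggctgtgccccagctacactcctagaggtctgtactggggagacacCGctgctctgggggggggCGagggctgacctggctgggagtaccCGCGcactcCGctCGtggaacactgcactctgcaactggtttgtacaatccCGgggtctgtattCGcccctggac
Tet2: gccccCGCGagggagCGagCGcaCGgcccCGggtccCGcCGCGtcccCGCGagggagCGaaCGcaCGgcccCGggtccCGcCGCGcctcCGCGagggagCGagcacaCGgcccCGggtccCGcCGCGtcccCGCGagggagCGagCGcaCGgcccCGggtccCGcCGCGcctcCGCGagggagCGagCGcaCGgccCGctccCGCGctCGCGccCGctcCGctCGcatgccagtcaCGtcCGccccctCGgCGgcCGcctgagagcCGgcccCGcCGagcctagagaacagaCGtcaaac
Dnmt3b: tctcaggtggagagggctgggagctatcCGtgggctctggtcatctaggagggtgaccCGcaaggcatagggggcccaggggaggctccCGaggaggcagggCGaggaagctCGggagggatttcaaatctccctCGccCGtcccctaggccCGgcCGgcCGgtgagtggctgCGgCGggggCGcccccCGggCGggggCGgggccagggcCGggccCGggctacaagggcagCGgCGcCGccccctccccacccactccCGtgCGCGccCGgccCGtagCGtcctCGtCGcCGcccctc
Dnmt3l: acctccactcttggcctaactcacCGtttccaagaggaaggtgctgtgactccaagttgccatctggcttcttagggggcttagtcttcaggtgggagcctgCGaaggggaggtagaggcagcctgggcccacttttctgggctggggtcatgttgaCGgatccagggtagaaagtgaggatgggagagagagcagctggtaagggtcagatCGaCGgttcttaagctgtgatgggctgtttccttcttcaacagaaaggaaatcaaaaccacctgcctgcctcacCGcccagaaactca
The octamer ATGCAAAT, searched on both strands (ATTTGCAT), was in none of the 9 promoters, and 1.735% of all promoters held it. These coordinates belong to another build than the peaks and cannot be set beside them. Peaks were not assigned to annotated starts. By gene order alone, Tet1 and Tet2 are read from high to low coordinates and the Dnmt3 genes from low to high. The flanking genes in that order are Ccar1 and Slc25a16 for Tet1, Ppa2 and Cxxc4 for Tet2, Dtnb and Pomc for Dnmt3a, Commd7 and Mapre1 for Dnmt3b, and Aire and Icosl for Dnmt3l.

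The lists differed in length in ways that touch every result. The H3K27me3 lists of days 4 and 8 (day 8 in Mbd3+/+ cells only) held 567 to 939 peaks against 13100 to 36232 in the other H3K27me3 lists. Those of Oct4 in MEF held 274 and 489. The Mbd3flox/- iPS lists of Oct4 (3331 peaks) and Mi2B (3462) were far shorter than the Mbd3+/+ ones (11881 and 26992). H3K27ac peaks covered 122.3 Mb in Mbd3+/+ iPS cells and 64.2 Mb in Mbd3flox/- iPS cells, and 97.1 and 91.0 Mb on day 8. H3K4me3 peaks covered more in Mbd3flox/- than in Mbd3+/+ cells at all 4 stages, from 49.0 against 21.1 Mb in MEF to 52.3 against 46.3 Mb in iPS cells. The part of list length in the differences below was not tested. Read depth is unknown from peak lists, and a window without a peak has no peak above the caller's limit (lowest deposited score 50). Scores have no common scale across lists, so scores and mean scores set side by side below cannot be read as differences in signal. For 4 Mbd3+/+ samples (H3K27me3, Mbd3 and Mi2B of day 4, Mi2B of day 8) the day in the stage label (5, 6, 7 and 11) is not that of the title, which was followed. The Mbd3+/+ day 8 H3K27me3 sample is labelled as repeating an earlier record of the same biological sample. The labelled cell types were not checked against marker genes, since no mm9 gene table was used here, and for the same reason no other gene of the pathway and no gene of like pattern is named.

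The 2 active marks were present at most stages of all 5 genes, and H3K27me3 was present at the Dnmt3 genes only. H3K4me3 and H3K27ac peaks were in all 9 lists of each at Tet1, Tet2, Dnmt3a and Dnmt3b, and in 8 and 6 of 9 at Dnmt3l. H3K27me3 had no peak at Tet1 or Tet2 in any of 8 lists, against 4 lists at Dnmt3a and 5 each at Dnmt3b and Dnmt3l. Oct4 had peaks in 5 of 7 lists at both Tet genes, 4 at Dnmt3a and 1 each at Dnmt3b and Dnmt3l. Mi2B had peaks in 7 of 7 lists at both Tet genes, 6 at Dnmt3a and Dnmt3l and 4 at Dnmt3b. Mbd3, profiled in Mbd3+/+ MEF, day 4 and iPS cells, had 12 of its 14 peaks in iPS cells, where its list was also the longest (8657 peaks against 1177 in MEF and 1944 on day 4).

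**Figure D1:**
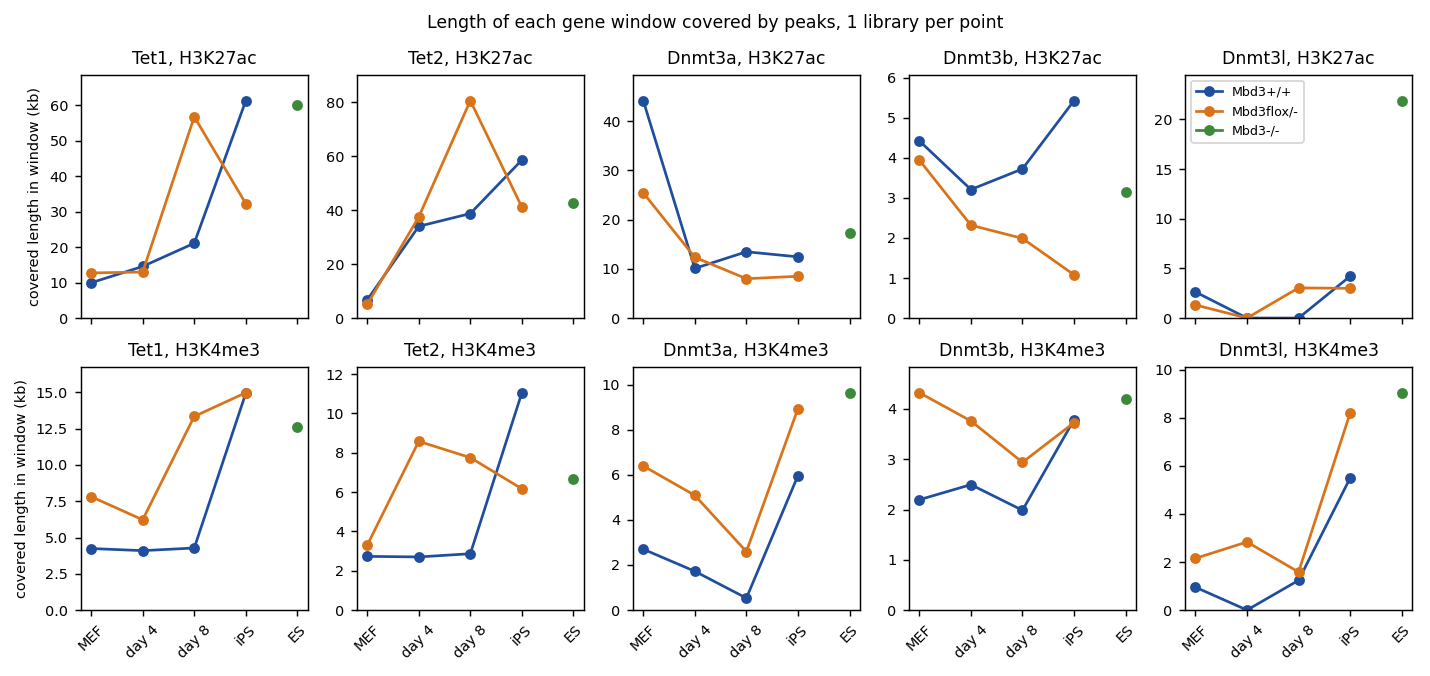
Length in kb of each gene window covered by H3K27ac (upper row) and H3K4me3 (lower row) peaks at each stage. Each point is 1 library, with Mbd3+/+ and Mbd3flox/- cells drawn as separate lines and the Mbd3-/- ES cells as a single point. H3K27ac at Tet1 reached 56.8 kb on day 8 in Mbd3flox/- cells and 21.1 kb in Mbd3+/+ cells.

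Tet1 had short H3K27ac peaks in fibroblasts and a long acetylated stretch in pluripotent cells. In the Mbd3+/+ lists, H3K27ac covered 9.95 kb of the window before DOX, 14.6 and 21.1 kb on days 4 and 8, and 61.3 kb in iPS cells. In Mbd3flox/- cells it covered 12.7, 13.0, 56.8 and 32.3 kb at the same stages, and in Mbd3-/- ES cells 60.0 kb. The longest stretch thus came on day 8 in Mbd3flox/- cells and in iPS cells in Mbd3+/+ cells. A longer covered stretch in a peak list cannot be told apart from more cells with the mark. Tet1 was also set beside the 100 kb windows of the genome with a peak in the same list, by the share of length covered. Here and below, the gene windows are placed on genes and are 45 to 135 kb long, unlike these windows. Before DOX, 54.2% (Mbd3+/+) and 64.7% (Mbd3flox/-) of these windows were less covered than Tet1. The values were 80.5% and 85.9% on day 4, 89.8% and 98.9% on day 8, and 98.8% and 97.3% in iPS cells.

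The acetylated stretch at Tet1 lay at the high-coordinate end, the side on which the gene starts. It was a single peak at chr10:62342319-62367950 (25.6 kb) on day 8 in Mbd3flox/- cells, wider than 99.5% of the peaks of that list. In iPS cells it spanned chr10:62339756-62373496 (33.7 kb) in Mbd3+/+ and chr10:62344223-62368053 (23.8 kb) in Mbd3flox/- cells, and in ES cells chr10:62342164-62373552 (31.4 kb). These peaks run past the window, and only their parts inside it count towards the covered length. In Mbd3+/+ cells of day 8 the widest peak, chr10:62353026-62361876, was 8.85 kb. All these widest peaks were picked for their width after the values were seen.

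H3K4me3 at Tet1 lay in 3 recurrent sites. The site at chr10:62346068-62356431 was present in all 9 lists, and in Mbd3+/+ iPS cells 1 peak of 10.4 kb filled it, with 99.98% of the peaks of that list narrower. The site at chr10:62253151-62256403, at the far end of the window, was also in all 9 lists. The site at chr10:62327303-62329752 was in 8, missing on day 8 in Mbd3+/+ cells. H3K4me3 covered 4.24, 4.10, 4.28 and 14.9 kb in Mbd3+/+ MEF, day 4, day 8 and iPS cells, 7.82, 6.22, 13.3 and 15.0 kb in Mbd3flox/- cells, and 12.6 kb in ES cells. For this mark the Mbd3flox/- day 8 value was close to those of iPS and ES cells, and the Mbd3+/+ day 8 value was close to that of MEF.

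Oct4 had 2 recurrent sites at Tet1. The one at chr10:62355041-62356757, inside the later acetylated stretch, was present on day 4 in both genotypes, on day 8 in Mbd3flox/- cells and in both iPS lists, which is every Oct4 list except the short MEF lists (Mbd3+/+ day 8 was not analysed here). Its highest score, the authors' value for a peak within its own list, was 133 in Mbd3+/+ and 128 in Mbd3flox/- cells on day 4, 794 in Mbd3flox/- cells on day 8, and 280 and 50.0 in Mbd3+/+ and Mbd3flox/- iPS cells. The last value is the lowest of its list. The other site, chr10:62306225-62307331, was present on day 4 in both genotypes and on day 8 in Mbd3flox/- cells and had no peak in iPS cells.

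Mi2B lay on the same ends of Tet1. Its sites at chr10:62254791-62256292 and chr10:62348101-62350765 were each in 6 of 7 lists, inside or beside H3K4me3 sites. The one at chr10:62355098-62356522, on the Oct4 site, was in 5, and the one at chr10:62357879-62362103 in 4, with its highest score, 598, in Mbd3+/+ iPS cells. The last, chr10:62346219-62347301, was in 3. All 5 were in the list of Mbd3-/- ES cells, which lack Mbd3. Mbd3 itself had 3 peaks in Mbd3+/+ iPS cells, at chr10:62311200-62312220, chr10:62357919-62358717 and chr10:62359436-62360311, the last with the highest score of the 3, 92.7.

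**Figure D2:**
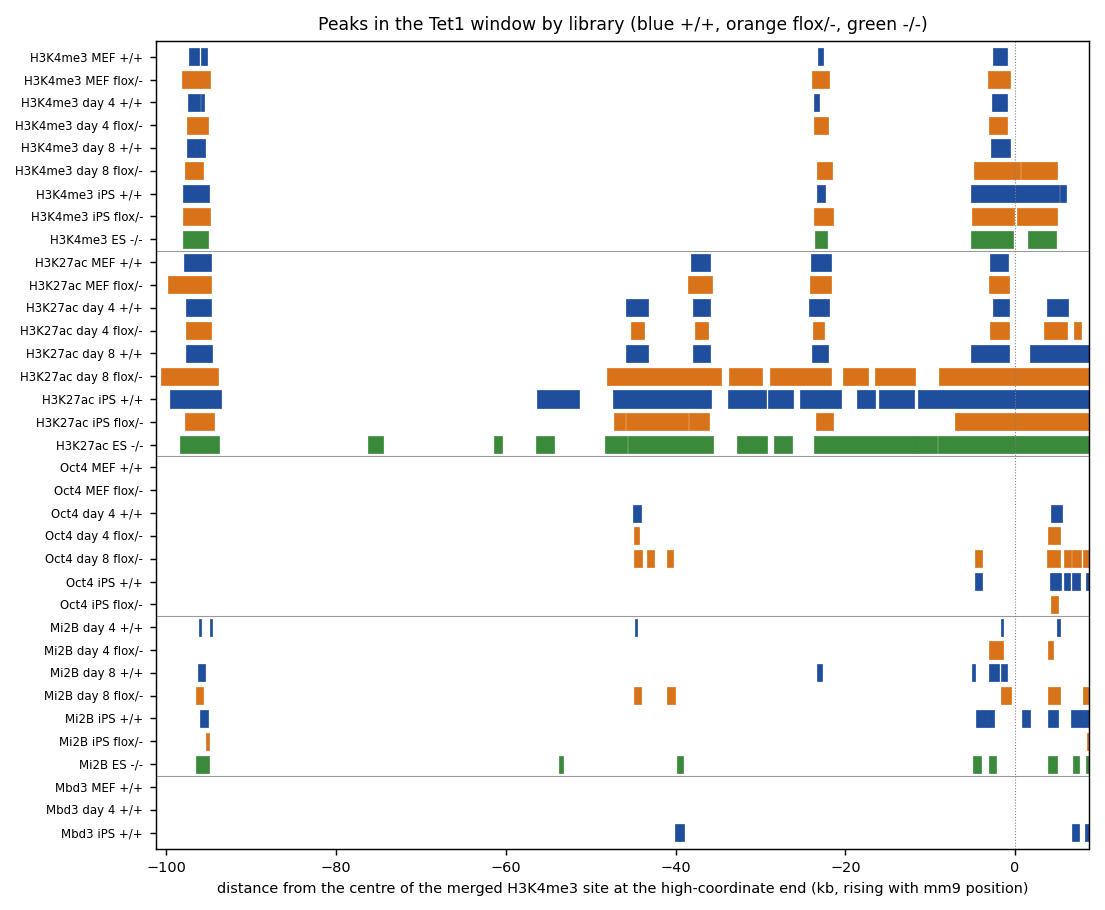
Peaks of each list over the Tet1 window, 1 row per library, by distance in kb from the centre of the merged H3K4me3 site at the high-coordinate end. Bars are peaks to scale, clipped at the window's edge, and colours mark the genotype. The wide H3K27ac bars at the right stand in the Mbd3flox/- day 8, iPS and ES rows.

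At Tet2, H3K27ac covered far more of the window on day 4 than in MEF, in both genotypes. H3K27ac covered 6.73 kb of its window in Mbd3+/+ MEF, 34.0 and 38.8 kb on days 4 and 8, and 58.6 kb in iPS cells. The Mbd3flox/- values were 5.06, 37.5, 80.6 and 41.1 kb, and the ES value 42.6 kb. Both genotypes were already above their MEF value on day 4, by similar lengths. Tet2 was more covered than 40.8% and 32.0% of the 100 kb windows with a peak in MEF (Mbd3+/+ and Mbd3flox/-), and than 96.8% and 99.3% on day 4.

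The Tet2 acetylation fell into 2 neighbouring blocks with a gap of under 1 kb between them. On day 8 in Mbd3flox/- cells they were chr3:133159412-133191656 (32.2 kb) and chr3:133192361-133216183 (23.8 kb). In Mbd3+/+ iPS cells they were chr3:133160864-133191694 (30.8 kb) and chr3:133192328-133208818 (16.5 kb), and in ES cells chr3:133167579-133191487 and chr3:133192367-133208716. In Mbd3+/+ cells of day 8 the blocks were shorter, chr3:133176990-133191496 (14.5 kb) and chr3:133192332-133200701 (8.37 kb). The inner ends of the blocks lay close together over these lists and the outer ends did not. These blocks too were picked for their width after the values were seen.

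H3K4me3 at Tet2 was in all 9 lists at chr3:133204350-133208861, on the side where the gene starts. Another site, inside the first acetylated block at chr3:133167208-133170206, was in 5 lists: Mbd3flox/- days 4 and 8, both iPS lists and ES cells. Neither MEF list nor the Mbd3+/+ lists of days 4 and 8 had it. A further site at chr3:133179409-133181403 was present on day 8 in Mbd3flox/- cells, in Mbd3+/+ iPS cells and in ES cells. H3K4me3 covered 2.73, 2.70, 2.86 and 11.1 kb in Mbd3+/+ and 3.30, 8.58, 7.75 and 6.17 kb in Mbd3flox/- cells at the 4 stages, and 6.66 kb in ES cells.

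The Oct4 peaks at Tet2 had the highest Oct4 scores of the 5 genes. The site at chr3:133187169-133188568, near the inner end of the first block, was in 5 of 7 lists. Its scores were 1271 in Mbd3+/+ and 501 in Mbd3flox/- cells on day 4, 1903 on day 8 in Mbd3flox/- cells, and 441 and 281 in Mbd3+/+ and Mbd3flox/- iPS cells. It scored above 96.5% to 99.9% of the peaks in each of these lists. The site in the other block, chr3:133195237-133197669, was in 4 lists and had no peak on day 4 in Mbd3+/+ cells. There its highest scores were 151 on day 4 and 1882 on day 8 in Mbd3flox/- cells, 633 in Mbd3+/+ iPS cells and 143 in Mbd3flox/- iPS cells. Of the 2 sites in 3 lists, chr3:133172790-133173624 was present on day 4 in both genotypes and on day 8 in Mbd3flox/- cells, and chr3:133181387-133182355 on day 8 in Mbd3flox/- cells and in both iPS lists.

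Both main Oct4 sites at Tet2 also held Mi2B and Mbd3 peaks. Mi2B was at chr3:133186679-133188561 in 6 of 7 lists, with a score of 321 in Mbd3+/+ iPS cells, and at chr3:133195063-133197732 in 4, with 571. The 4 further Mi2B sites in 3 or 4 lists were chr3:133169110-133170232, chr3:133180199-133182591, chr3:133199221-133200041 and chr3:133207556-133208373. Mbd3 had 5 peaks in Mbd3+/+ iPS cells. The highest, chr3:133186947-133188334 (score 186, above 97.9% of the list), and the next, chr3:133195306-133196226 (score 111), were on these sites. The peak at chr3:133181403-133181998 also overlapped an Oct4 and a Mi2B site, both present in Mbd3+/+ iPS cells. That at chr3:133130452-133131151 overlapped an Oct4 and a Mi2B site present in Mbd3flox/- lists only, and the one at chr3:133171501-133172254 overlapped neither. On day 4 a narrow Mbd3 peak lay at chr3:133207716-133207851.

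**Figure D3:**
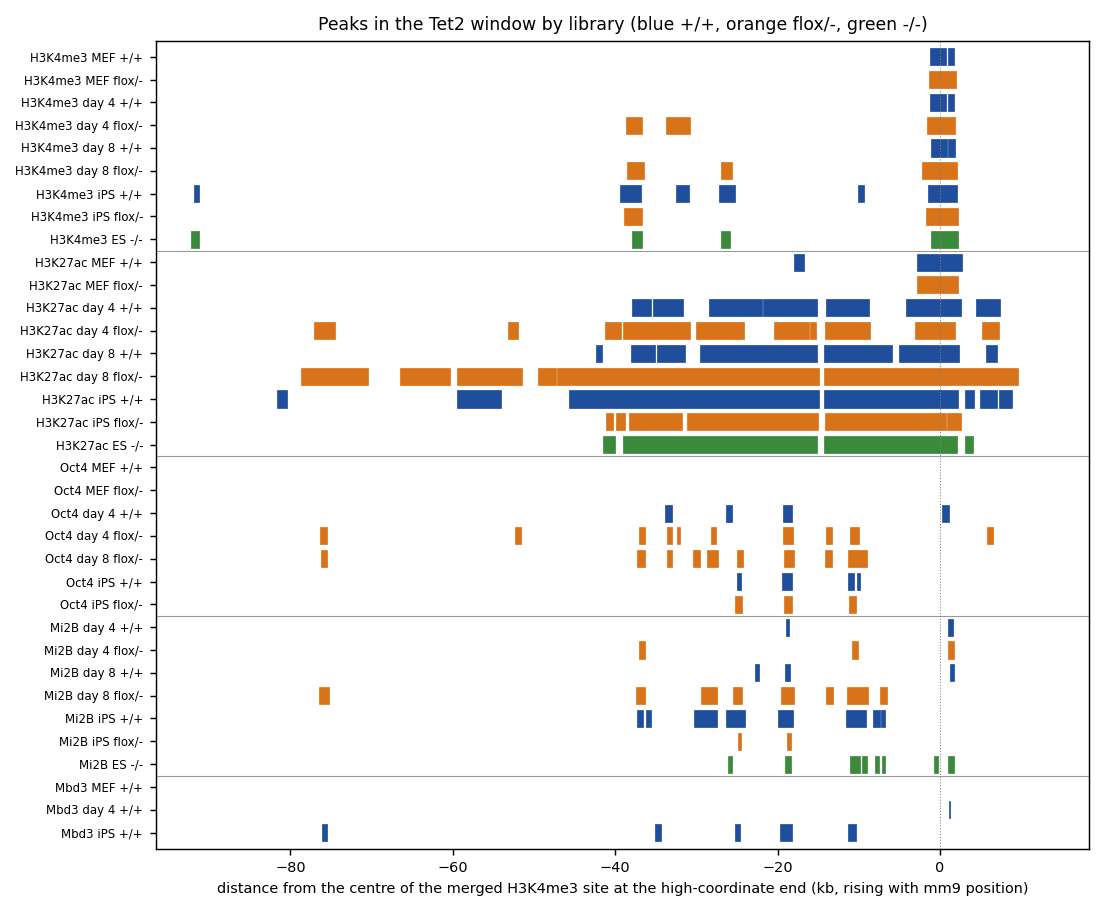
Peaks of each list over the Tet2 window, 1 row per library, by distance in kb from the centre of the merged H3K4me3 site at the high-coordinate end. Bars are peaks to scale, clipped at the window's edge, and colours mark the genotype. H3K27ac covers 5.06 to 6.73 kb in the MEF rows and 34.0 to 80.6 kb in the later ones.

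Dnmt3a had the opposite course. H3K27ac covered 44.1 kb in Mbd3+/+ and 25.4 kb in Mbd3flox/- MEF, 10.1 and 12.3 kb on day 4, 13.5 and 7.99 kb on day 8, 12.4 and 8.48 kb in iPS cells, and 17.3 kb in ES cells. Both MEF values were above every later value. The MEF lists were also the longest, covering 191.7 and 183.1 Mb of the genome against 91.8 and 71.8 Mb on day 4. Within its own list Dnmt3a was more covered than 91.3% and 80.3% of the 100 kb windows with a peak in MEF, and than 61.1% and 78.7% on day 4. The highest-scoring acetylated peak of the window was chr12:3853415-3859003 in Mbd3+/+ MEF.

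The H3K4me3 sites of Dnmt3a were mostly constant. The site at chr12:3890606-3893798 was in all 9 lists, chr12:3805709-3809303 in 8 (missing on day 8 in Mbd3+/+ cells) and chr12:3791150-3792639 in 7 (missing on day 8 in both genotypes). The site at chr12:3870525-3872333 was in the 2 iPS lists and the ES list and in no other. H3K4me3 covered 2.70, 1.72, 0.53 and 5.97 kb in Mbd3+/+ and 6.39, 5.09, 2.60 and 8.94 kb in Mbd3flox/- cells, with the lowest value of each genotype on day 8, and 9.64 kb in ES cells. H3K27me3 peaks were few, narrow and low, 9 over 4 lists, with the highest at chr12:3921591-3922531 in Mbd3flox/- MEF (score 120).

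Oct4 had 1 recurrent site at Dnmt3a, chr12:3795348-3796225, present on day 4 in both genotypes and on day 8 in Mbd3flox/- cells with scores of 83.6 to 103. In iPS cells it had no Oct4 peak, and in Mbd3+/+ iPS cells an Mbd3 peak, chr12:3795450-3796248, lay at the same place. The other 2 Mbd3 peaks were chr12:3885101-3885558 and chr12:3889696-3890478. Mi2B was at chr12:3890660-3891696 in 5 of 7 lists and at chr12:3870860-3872175, the place of the H3K4me3 site of iPS and ES cells, in 4. The 3 Mi2B sites found in 3 lists were chr12:3791840-3792230, chr12:3808074-3809097 and chr12:3889384-3890597.

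The Dnmt3b window had a small set of active peaks, constant in place for H3K4me3 but not for H3K27ac. Both H3K4me3 sites of the window, chr2:153456978-153459155 on the Commd7 side and chr2:153474249-153476888, were in all 9 lists. Which gene the first site belongs to was not determined. H3K4me3 covered 1.99 to 3.79 kb over the 4 Mbd3+/+ lists and 2.94 to 4.33 kb over the 4 Mbd3flox/- lists. H3K27ac lay on the same 2 sites and nowhere else in the window. At the first it was in all 9 lists, with its highest score, 3027, at chr2:153456651-153459393 in Mbd3+/+ MEF. At the second it was in 7, missing on day 8 and in iPS cells of Mbd3flox/- cells. H3K27ac covered 5.43 kb in Mbd3+/+ and 1.08 kb in Mbd3flox/- iPS cells, and the mean score over the covered bases was 202 and 55.1. The Mbd3flox/- value is that of the Commd7-side site alone.

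H3K27me3 at Dnmt3b lay between the 2 active sites in fibroblasts. A peak at chr2:153467062-153470479 in Mbd3+/+ MEF (score 316, above 87.8% of its list) had a counterpart at chr2:153467702-153470206 in Mbd3flox/- MEF (score 247). Neither day 4 list nor the Mbd3+/+ day 8 list had an H3K27me3 peak in any of the 5 windows, and those lists were the short ones. For this mark no Mbd3flox/- day 8 list was analysed here. In iPS and ES cells the H3K27me3 peaks had scores of 50.2 to 94.6. Oct4 had 1 peak, chr2:153506695-153507597 on day 8 in Mbd3flox/- cells, and Mbd3 had 1 narrow peak, chr2:153475316-153475440 on day 4. Mi2B was at chr2:153457613-153458901, on the Commd7-side H3K4me3 site, in 4 of 7 lists.

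The Dnmt3l window had H3K27me3 peaks in fibroblasts, and both of its active marks covered the longest stretch in ES cells. H3K27me3 covered 9.37 kb in Mbd3+/+ and 3.71 kb in Mbd3flox/- MEF (mean scores 212 and 153), and 0.899 and 0.694 kb in iPS cells. The whole H3K27me3 lists also covered less in iPS cells, 8.35 against 62.8 Mb in MEF for Mbd3+/+ and 10.7 against 68.3 Mb for Mbd3flox/- cells. Within its list the window was more covered, by share of length, than 90.4% of the 100 kb windows with a peak in Mbd3+/+ MEF and than 82.3% in iPS cells. In Mbd3flox/- cells the values were 68.3% and 55.0%. The Dnmt3l window is only 45 kb long, so equal covered lengths give it a higher share than a 100 kb window. The highest peak was chr10:77532168-77534885 in Mbd3+/+ MEF (score 316), and both MEF lists had peaks there and at chr10:77529318-77531792, on the Icosl side. In Mbd3flox/- MEF these were the only H3K27me3 peaks of the window. H3K27ac covered 2.63 and 1.32 kb in Mbd3+/+ and Mbd3flox/- MEF and had no peak on day 4 in either genotype. On day 8 it covered 3.04 kb in Mbd3flox/- cells and had no peak in Mbd3+/+ cells. In iPS cells it covered 4.21 and 2.99 kb, and in ES cells 21.9 kb, more than in any other list. The highest-scoring acetylated peak was chr10:77508161-77515786 in ES cells, beside chr10:77499190-77507914 in the same list.

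Most H3K4me3 sites of Dnmt3l were those of pluripotent cells. The sites at chr10:77496829-77498988 and chr10:77499123-77501456 were in the 2 iPS lists and the ES list only, and chr10:77505220-77506932 in these and on day 4 in Mbd3flox/- cells. The site at chr10:77531228-77533398, on the Icosl side, was in 8 lists, missing on day 4 in Mbd3+/+ cells. In both MEF lists its peak overlapped H3K27me3 of the same list. It was the only H3K4me3 peak of the 5 windows to do so in MEF, 1 of 13 in Mbd3+/+ and 1 of 11 in Mbd3flox/- cells. Over all H3K4me3 peaks of these lists the shares were 8.52% and 17.5%. H3K4me3 covered 0.95 kb in Mbd3+/+ MEF, nothing on day 4, 1.24 kb on day 8 and 5.50 kb in iPS cells. The Mbd3flox/- values were 2.15, 2.84, 1.59 and 8.20 kb and the ES value was 9.05 kb.

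At Dnmt3l all 3 proteins had a peak at the same place. Oct4 had 1 peak, chr10:77510706-77511402 on day 8 in Mbd3flox/- cells (score 237), inside the H3K27ac peak of that library, chr10:77509898-77512935. Mi2B was at chr10:77510696-77511526 on day 8 in Mbd3flox/- cells, in Mbd3+/+ iPS cells and in ES cells. The Mbd3 peak of Mbd3+/+ iPS cells was chr10:77510919-77511548 (score 55.6). The other recurrent Mi2B site, chr10:77531740-77532932, lay on the H3K4me3 site beside Icosl in 5 of 7 lists.

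**Figure D4:**
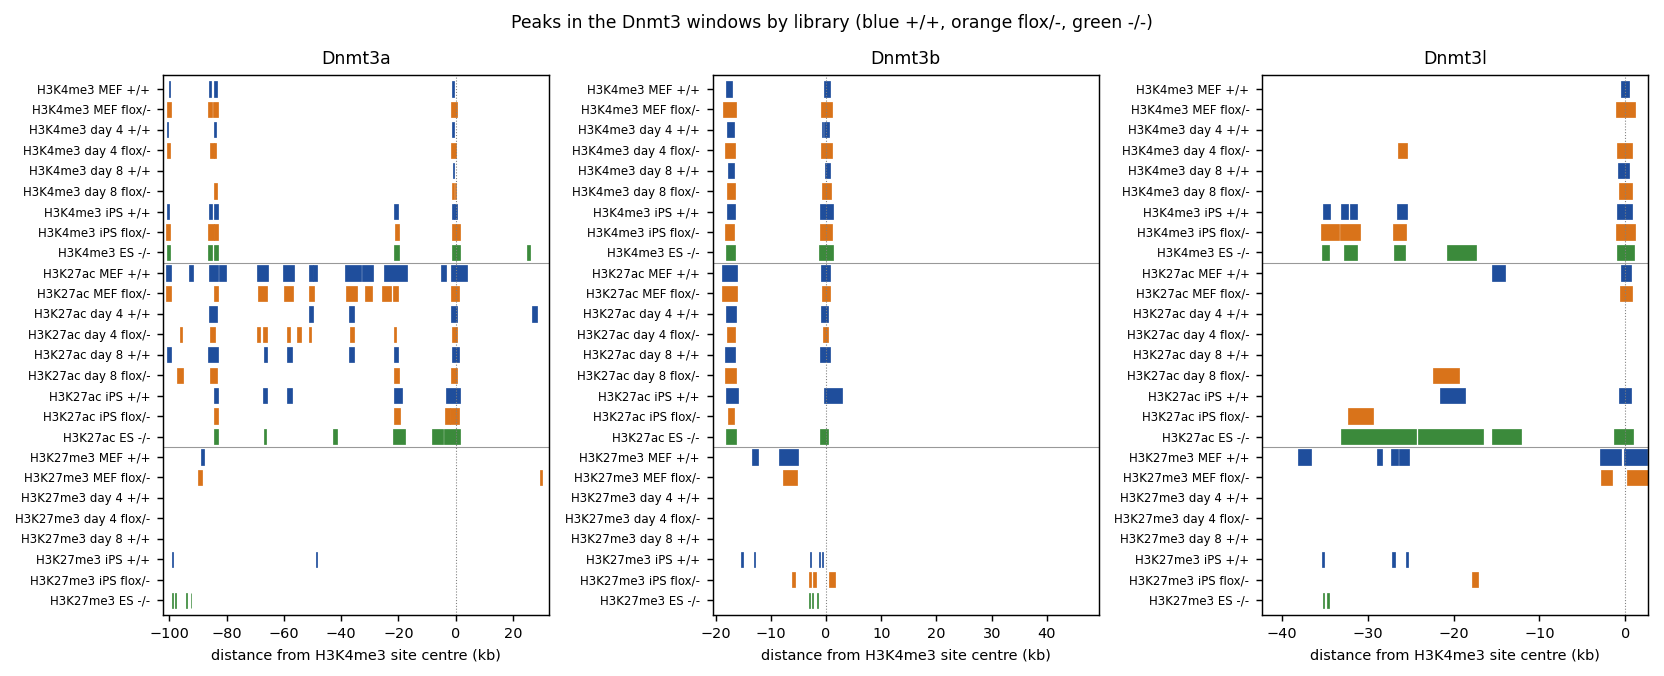
Peaks of each list over the Dnmt3a, Dnmt3b and Dnmt3l windows, 1 row per library, by distance in kb from the centre of a recurrent H3K4me3 site of each gene (held in 8 of 9 lists at Dnmt3l, in all at the others). Bars are peaks to scale, clipped at the window's edge, and colours mark the genotype. Dnmt3a has its many H3K27ac bars in the MEF rows and Dnmt3l its long ones in the ES row.

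The genotypes were compared by the covered length of each window in lists of the same antibody and stage. Of 85 comparisons (5 genes, 17 pairs of lists), Mbd3flox/- was at least 2-fold higher, or had the only peaks, in 19, and Mbd3+/+ in 11. The length differed by under 2-fold in 35, and 20 had no peak in either. Over all 100 kb windows with a peak in either list, 28.0% were called higher in Mbd3flox/- and 29.5% higher in Mbd3+/+ over the same pairs. Windows without a peak in either list are left out of these shares, whereas the 20 such comparisons are among the 85. With each peak set to 250 bp either side of its midpoint the 2 counts were 9 and 22, so the balance between genotypes changed with this setting, which ignores peak length. The share over all 100 kb windows was not computed for it.

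On day 8 H3K27ac covered more of both Tet genes in Mbd3flox/- than in Mbd3+/+ cells. The whole Mbd3flox/- list of that day held fewer and wider peaks, 21237 with a median width of 3032 bp. The Mbd3+/+ list held 39463 with a median of 1909 bp. The part of this in the differences was not tested. Tet1 was covered 2.69-fold more in Mbd3flox/- cells (56.8 against 21.1 kb, mean scores 1534 and 1223) and Tet2 2.08-fold more (80.6 against 38.8 kb, mean scores 1536 and 1549), and Dnmt3l had peaks in Mbd3flox/- cells only. On day 8, 20.9% of the 100 kb windows were called higher in Mbd3flox/- and 41.9% higher in Mbd3+/+, so the calls at these 3 genes were in the less common direction. Dnmt3a (7.99 against 13.5 kb) and Dnmt3b (1.99 against 3.73 kb) were less covered in Mbd3flox/- cells, by under 2-fold. With scores of at least 100 alone they were called higher in Mbd3+/+ cells, Dnmt3a at 4.62-fold and Dnmt3b with no Mbd3flox/- peak left, and the H3K27ac calls in that direction over all stages came to 5 in place of 1. All 6 Mbd3+/+ peaks at Tet1 and all 7 at Tet2 of day 8 overlapped a Mbd3flox/- peak, while 57.0% of all Mbd3+/+ H3K27ac peaks of day 8 had none. Such overlap was easy, since the Mbd3flox/- peaks covered 51.6% of the Tet1 and 70.1% of the Tet2 window. In the other direction 4 of 7 Mbd3flox/- peaks at Tet1 and 2 of 6 at Tet2 had a counterpart. Thus 42.9% and 66.7% had none, against 30.9% of all Mbd3flox/- peaks. Peak counts were alike, 6 against 7 at Tet1 and 7 against 6 at Tet2. With fixed peak widths the Tet2 difference turned to 0.50 kb in favour of Mbd3+/+ and the Tet1 difference shrank to 0.50 kb, since that setting counts peaks and ignores their length. In iPS cells Dnmt3b was 5.03-fold higher in Mbd3+/+, in lists where 49.6% of the windows were called so and 8.22% the other way. At Tet1, Tet2, Dnmt3a and Dnmt3l the iPS lists differed by under 2-fold in length, but with scores of at least 100 Tet1 was 2.05-fold higher in Mbd3+/+. At Dnmt3l the places differed, since neither the 1 Mbd3flox/- peak nor the 2 Mbd3+/+ peaks had a counterpart. Of all iPS H3K27ac peaks, 12.7% (Mbd3flox/-) and 45.7% (Mbd3+/+) had none.

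H3K4me3 was called higher in Mbd3flox/- in 8 of 20 comparisons and in Mbd3+/+ in none. These were Dnmt3a and Dnmt3l in MEF, Tet2, Dnmt3a and Dnmt3l on day 4, and Tet1, Tet2 and Dnmt3a on day 8. The share of 100 kb windows called so was 61.3% before DOX, 46.7% and 33.0% on days 4 and 8, and 12.6% for iPS cells, so calls in this direction were common in these lists. In the other direction it was 0.838%, 1.14%, 2.94% and 18.0%. The largest fold with peaks in both genotypes was at Dnmt3a on day 8, from 0.53 kb (Mbd3+/+) and 2.60 kb, and counting only peaks with a score of at least 100 turned its direction (0.53 kb more in Mbd3+/+). At Tet1 on day 8 the lengths were 4.28 and 13.3 kb, with mean scores of 314 and 380.

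Mi2B differed between the genotypes in a direction that changed with the stage, at Tet2 for example. It covered 11.2 kb of the Tet2 window in Mbd3flox/- and 1.54 kb in Mbd3+/+ cells on day 8, 7.28-fold (mean scores 128 and 78.6), in lists where 30.4% of the windows were called higher in Mbd3flox/-. In iPS cells it covered 0.86 kb in Mbd3flox/- and 12.2 kb in Mbd3+/+ cells, and all 5 genes were called higher in Mbd3+/+, as were 97.1% of all windows. Oct4 had its largest fold at Tet1 in iPS cells, 5.30-fold, with 4.24 kb in Mbd3+/+ and 0.801 kb in Mbd3flox/- cells (mean scores 141 and 50.0), in lists where 70.9% of the windows were called higher in Mbd3+/+. Oct4 covered 7.41 kb of Tet2 in Mbd3flox/- and 3.49 kb in Mbd3+/+ cells on day 4 (mean scores 240 and 479), where 52.1% of the windows were called so. At Dnmt3a on day 4 Oct4 covered 3.36 kb in Mbd3+/+ and 1.31 kb in Mbd3flox/- cells (mean scores 89.3 and 117), a call that 14.0% of the windows had, and with scores of at least 100 alone the difference turned to 0.61 kb more in Mbd3flox/- cells.

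Peak by peak and with stages pooled, most shares with a counterpart in the other genotype were near those of the whole lists. Of the H3K27ac peaks, 68 of 88 in Mbd3flox/- cells (77.3%, 95% Wilson interval 67.5% to 84.8%) overlapped a Mbd3+/+ peak, and 25.8% of all such peaks had no counterpart against 22.7% here. In the other direction it was 64 of 90 (71.1%, 61.0% to 79.5%), so 28.9% had none against 38.6% of all. For H3K4me3 it was 44 of 55 in Mbd3flox/- (80.0%, 67.6% to 88.4%; 28.8% of all without) and 53 of 58 in Mbd3+/+ cells (91.4%, 81.4% to 96.3%; 12.3% of all without). In single stages, 4 shares had an interval that lay wholly above the whole-list value. These were H3K4me3 in Mbd3flox/- MEF, where all 11 peaks had a counterpart and 39.2% of all had none, and H3K27ac in Mbd3flox/- MEF, where all 18 had one and 18.4% of all had none. The others were H3K27ac of Mbd3+/+ cells on day 4 (19 of 20, 31.7% of all without) and on day 8 (17 of 22, 57.0% of all without). On day 8 the wide Mbd3flox/- peaks at the Tet genes made such overlap easy. The intervals cover the counting of peaks only, and peaks of a window share their source.

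Of the Oct4 peaks, 10 of 19 in Mbd3flox/- (52.6%, 31.7% to 72.7%) and 9 of 21 in Mbd3+/+ cells (42.9%, 24.5% to 63.5%) had a counterpart, where 68.6% and 59.9% of all peaks had none. Of the Mi2B peaks it was 14 of 38 (36.8%, 23.4% to 52.7%) and 13 of 54 (24.1%, 14.6% to 36.9%), where 63.0% and 79.9% of all had none. For H3K27me3 it was 5 of 10 in Mbd3flox/- (50.0%, 23.7% to 76.3%; 44.3% of all without) and 5 of 19 in Mbd3+/+ cells (26.3%, 11.8% to 48.8%; 48.5% of all without). The pooled H3K27me3 share of Mbd3+/+ cells was thus below that of the whole lists, and with scores of at least 100 alone it was 60.0%. In single stages the intervals held the whole-list share. It was 4 of 9 in MEF (44.4%, 18.9% to 73.3%, against 61.1% of all). In iPS cells it was 1 of 10 (10.0%, 1.79% to 40.4%, against 39.3% of all).

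**Figure D5:**
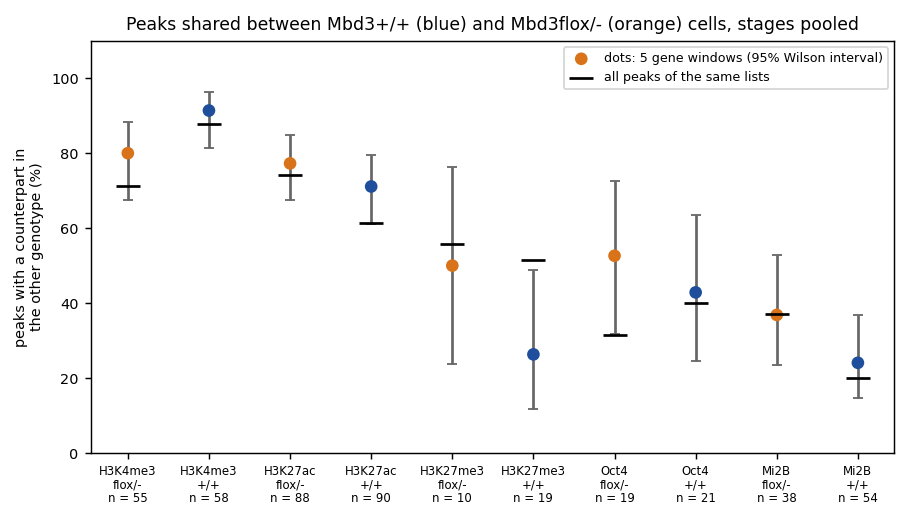
Share in percent of peaks that overlap a peak of the other genotype by at least 1 bp, by antibody, with stages pooled. Dots are the peaks of the 5 gene windows with 95% Wilson intervals, blue for Mbd3+/+ and orange for Mbd3flox/- peaks, and the second marker is the share over all peaks of the same lists. The interval held the whole-list share for every antibody and direction except H3K27me3 of Mbd3+/+ cells (26.3% against 51.5%) and Oct4 of Mbd3flox/- cells (52.6% against 31.4%). For both of these, the intervals of single stages held the whole-list share.

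Part of the iPS acetylation at these genes overlapped peaks of each earlier stage. With MEF peaks the shares were 14 of 25 in Mbd3+/+ (56.0%, 37.1% to 73.3%) and 12 of 22 in Mbd3flox/- cells (54.5%, 34.7% to 73.1%), against 52.9% and 56.3% of all iPS peaks. In Mbd3flox/- cells 18 of 22 iPS H3K27ac peaks (81.8%, 61.5% to 92.7%) overlapped a day 4 peak and 20 of 22 (90.9%, 72.2% to 97.5%) a day 8 peak, against 56.8% and 67.1% of all iPS peaks of that genotype. In Mbd3+/+ cells it was 12 of 25 on day 4 (48.0%, 30.0% to 66.5%) and 14 of 25 on day 8 (56.0%, 37.1% to 73.3%), against 45.1% and 54.6% of all. The Mbd3+/+ shares were thus near those of the whole list at all 3 earlier stages, and that of MEF was as high as that of day 8. The difference between the genotypes was not tested. These shares depend on peak width: the wide day 8 peaks in Mbd3flox/- cells each overlap several iPS peaks, and with fixed widths the shares for days 4 and 8 were 40.9% and 13.6% in Mbd3flox/- and 24.0% and 28.0% in Mbd3+/+ cells.

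Within 1 genotype and stage, most Oct4 peaks at these genes lay on acetylated chromatin. Of 60 Oct4 peaks 55 (91.7%) overlapped H3K27ac, against 57.9% of all Oct4 peaks. In Mbd3+/+ cells on day 4 it was 7 of 11 (63.6%), near the 65.9% of all peaks of that list, and in the other lists all peaks but 1 did. Of the Mi2B peaks 105 of 122 (86.1%, against 78.8% of all) lay on H3K27ac, and of the Oct4 peaks 33 of 60 (55.0%, against 31.9%) lay on Mi2B, a share of 31.4% with scores of at least 100. H3K4me3 overlapped H3K27ac in 108 of 134 peaks (80.6%, against 67.5%). Long acetylated peaks are easier to overlap: with fixed widths 28.3% of the Oct4 peaks and 25.8% of the Mi2B peaks lay on H3K27ac. Mbd3 lay on H3K27ac in 11 of 14 peaks (78.6%, against 74.5% of all) and on Mi2B in 8 of 14 (57.1%, against 67.6%).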

How the data were processed

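Chromatin immunoprecipitation sequencing was deposited as 43 peak lists of 6 antibodies from 52 samples, of which 9 are inputs without a list. Reads were handled with CASAVA 1.8.2, Bowtie 0.12.5 and MACS 1.4.1 on mm9, per the submitters' processing notes; their settings are not given in the sources used here. Each peak carries a deposited score. This score, as the authors deposited it, was used only within its list; its range is that of a log-scaled p-value, and many of the highest values tie at 3100. Samples were grouped by antibody, stage and genotype from their titles.

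Peaks were read as 1-based positions and overlapped with the windows by at least 1 bp. Covered length is the union of peaks cut to the window, and the mean score beside it is over the whole peaks, weighted by length. Peaks of 1 antibody that overlapped across lists were merged to 1 site. Genotypes were compared by the share of peaks with a counterpart (95% Wilson interval) and by a 2-fold call of covered length, set beside the same call over 100 kb windows that hold a peak. With 1 library per group no test was made. The 5 genes were named in all comparisons; coordinates were given for H3K4me3, Oct4 and Mi2B sites in at least 3 lists, all Mbd3 sites and the highest-scoring H3K27ac and H3K27me3 peaks, and for peaks stated as picked later. The members and lists were chosen with earlier results of these data known. Alternatives were a score of at least 100, at least 50% of a peak covered, lists of equal length, fixed widths and peak midpoints in the window; the use of these on the overlaps between antibodies and on iPS peaks present in MEF, and leaving out the day 4 or the iPS pair, were chosen after seeing the data. Overlaps were tested on simulated peaks and checked against bedtools 2.31.1. Python 3.11.15, numpy 2.4.6, pandas 2.3.3, statsmodels 0.14.6 and matplotlib 3.10.9 were used.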

Additional observations from a re-analysis of the deposited data

Results flagged for a closer look

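Between 2 successive stages, the length covered by H3K27ac went up in 1 genotype and down in the other at 7 gene and stage steps. Each step rests on 1 library per group, and the difference between genotypes was not tested.

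From day 8 to iPS cells the Tet genes had the largest of these changes. Tet1 gained 40.24 kb in Mbd3+/+ cells and changed by -24.52 kb in Mbd3flox/- cells. Tet2 gained 19.88 kb in Mbd3+/+ cells and changed by -39.52 kb in Mbd3flox/- cells. Dnmt3l changed by 4.21 kb in Mbd3+/+ and -0.05 kb in Mbd3flox/- cells. Dnmt3b changed by 1.71 kb in Mbd3+/+ and -0.91 kb in Mbd3flox/- cells. Dnmt3a went the other way, by -1.03 kb in Mbd3+/+ and 0.49 kb in Mbd3flox/- cells. Over the same step the whole H3K27ac list went from 97.1 to 122.3 Mb in Mbd3+/+ and from 91.0 to 64.2 Mb in Mbd3flox/- cells, and the part of this in the changes was not tested.

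From day 4 to day 8, Dnmt3a changed by 3.38 kb in Mbd3+/+ and -4.34 kb in Mbd3flox/- cells. Dnmt3b changed by 0.52 kb in Mbd3+/+ and -0.33 kb in Mbd3flox/- cells.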

How the results depend on the processing

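Of 92 recomputed main shares and counts, 72 stayed close to the reported value. Of 215 other values, 159 were counted as close, 50 as moved and 6 as changed in direction. A covered-length difference of under 2-fold that changed sign was not counted as changed in direction. Fixed peak widths moved the most. With them the H3K4me3 share of Mbd3+/+ peaks with a counterpart was 72.4%, the H3K27ac shares were 43.2% (Mbd3flox/-) and 42.2% (Mbd3+/+), the iPS acetylation already present in MEF and on days 4 and 8 was 20.0%, 24.0% and 28.0% (Mbd3+/+) and 31.8%, 40.9% and 13.6% (Mbd3flox/-), and the 2-fold counts were 9 for Mbd3flox/- and 22 for Mbd3+/+. By construction this setting ignores peak length. Scores of at least 100 gave 66.7% for Mbd3flox/- H3K4me3, 60.0% for Mbd3+/+ H3K27me3, and 20.0% and 13.3% for Mi2B of Mbd3flox/- and Mbd3+/+ cells. Coverage of at least 50% of the peak gave 60.0% for Mbd3flox/- H3K4me3, 21.1% for Mbd3flox/- Mi2B and 32.0% and 20.0% for Mbd3+/+ iPS acetylation present in MEF and on day 4. Lists of equal length gave a count of 7 for Mbd3+/+. Where no construction is named, the cause was not tested.

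Of the covered-length differences (Mbd3flox/- minus Mbd3+/+) of at least 2-fold, 6 changed direction. With scores of at least 100 they were Dnmt3a H3K4me3 on day 8 (-0.53 kb), Tet2 Mi2B on day 4 (-0.59 kb) and Dnmt3a Oct4 on day 4 (0.61 kb). With fixed widths they were Tet2 H3K27ac on day 8 (-0.50 kb), Dnmt3b H3K27me3 in iPS cells (-0.50 kb) and Dnmt3l Mi2B on day 4 (-0.50 kb). Differences of under 2-fold that changed sign are not among these. Examples with fixed widths were Tet1 H3K4me3 in MEF and on day 4, Tet1 Mi2B on day 4 and Tet2 H3K27ac in iPS cells. With lists of equal length, Dnmt3a H3K27ac on days 4 and 8 also changed sign. Leaving out the iPS pair (Oct4, Mi2B) or the day 4 pair (H3K27me3) moved no share out of its interval. No paired analysis was possible because each group has 1 library and the labels give no replicate numbers; leaving out replicates was not possible for the same reason. Read depth behind the lists is unknown.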
